A study of Sus scrofa with 7 samples.

Results

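The proteasome is the large protease that breaks down proteins tagged with ubiquitin, and its subunit genes were followed here in infarcted pig heart. Members were the genes whose deposited symbol begins with PSMA, PSMB, PSMC, PSMD, PSME or PSMF, with the immunoproteasome genes PSMB8, PSMB9 and PSMB10 left out. There were 43 such genes of 20653 in the table, and 41 of them reached 10 normalized counts in 3 or more libraries. Of these 41, 14 encode the 20S core, 17 the base and lid of the 19S regulatory particle, 3 assembly chaperones of the base and 5 activators or an inhibitor. The other 2, PSMC3IP (a meiotic recombination factor) and PSME3IP1 (a partner of PSME3), match by symbol but encode no subunit. The members that did not pass were PSMA8, the alpha subunit of the testis proteasome, with at most 5.77 normalized counts in a library, and PSMB11, the thymus catalytic subunit, with 0 in every library. The measured members nearest to the minimum were PSMC3IP, with a mean of 152 normalized counts, and PSMD10, with 198, so no member lay close to it.

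RNA was sequenced from the anteromidventricular myocardium of male farm pigs, 14 weeks after an infarction in the left circumflex territory. All animals had the infarct, and an adeno-associated virus of serotype 5 had been given to all. In the 3 hrLuc libraries the virus carried luciferase, a reporter enzyme, and in the 4 S100a1 libraries it carried the human gene for S100A1, which binds calcium in heart muscle cells. Uninfarcted or untreated hearts were not analysed here, and the sources used here give neither the promoter in the vectors nor the dose or the age of the animals. The titles name a separate pig for each library, and nothing else says how the animals were raised or sampled.

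The core is a barrel of alpha rings outside and beta rings inside, and the beta rings hold the active sites. The regulatory particle binds ubiquitin chains, removes them, unfolds the protein with a ring of ATPases and opens the gate of the core. In heart muscle the proteasome takes part in the turnover of sarcomere and signalling proteins, and muscle ubiquitin ligases such as FBXO32 and TRIM63 feed it.

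Each library held 28679324 to 38409552 reads with 1 transcript row kept per gene. Markers of cardiomyocytes were high in every library, with a summed level of 1703130 to 1955980 normalized counts over 8 genes in hrLuc and 1820210 to 2003900 in S100a1. The pig S100A1 gene, which overlaps S100A13, was not higher under the S100a1 label (in hrLuc 7461, 6568 and 9125 normalized counts, in S100a1 5950.1, 6804, 6548 and 4429, log2 fold change -0.39, adjusted p = 0.577, limma). Whether reads of the human vector sequence were counted on it is not given, so the labels are not checked by it. The library numbers in the labels, 33, 39 and 45 for hrLuc and 57, 9, 15 and 21 for S100a1, do not alternate between the groups, so a batch that followed them and the vector cannot be told apart.

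No proteasome gene passed the test between the vectors, and the intervals of the differences were narrow. Of 41 members 0 passed an adjusted p of 0.05 in limma, where 0.0128% of the 15661 genes tested did. At an unadjusted p under 0.05 there were also 0 members, against 8.26% of all genes, and in 0 members were the groups apart, against 9.27% of all genes. The log2 fold changes of S100a1 over hrLuc ran from -0.20 to 0.13 with standard errors of 0.063 to 0.14, on the log2(normalized count + 0.5) scale used throughout. The 95% intervals of the single genes, not adjusted for their number, reached from -0.43, or 0.741-fold, to 0.33, or 1.26-fold. All 41 lay inside 1.5-fold either way, as did 68.4% of the genes tested. Those genes include ones at lower levels than any member, and the share among genes at member levels was not taken. Run on recovered whole reads, edgeR called 0 members (0.0128% of genes) and DESeq2 called 0 (0.568% of genes), and each had 1 member, PSMF1, at an unadjusted p under 0.05. The authors' deposited table likewise has 0 members at an adjusted p under 0.05, where 0.728% of the genes were called, and its lowest adjusted p among the members is 0.613.

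The members leaned slightly to the lower side with the deposited scaling. Of the 41, 32 had a negative log2 fold change, or 78.0%, where 56.5% of all genes did, and 20 of 41 were negative when each library was centred on its median gene. The median was -0.04 over the members and -0.02 over all genes tested, and with median centring they were 0.0023 and 0.023. Without hrLuc replicate 2 the median was -0.12, 38 members were negative and 6 were at an unadjusted p under 0.05 in limma (PSMA1, PSMA5, PSMB3, PSMB4, PSME1 and PSME2), of which 0 passed adjustment, while 10.5% of all genes were at such a p. Without hrLuc replicate 1 the median was -0.018, against -0.021 over all genes, and without hrLuc replicate 3 it was -0.0057, against -0.018. Leaving out S100a1 replicates 1, 2, 3 and 4 in turn gave -0.027, -0.083, -0.066 and -0.036, against -0.017, -0.031, -0.026 and -0.020. The size of the lean thus changed with single hearts of both groups. Without hrLuc replicate 1 or 3 the member median was not below that of all genes, while without any single S100a1 replicate it stayed below. In bulk tissue fewer cells of a type and less RNA per cell cannot be told apart.

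**Figure D1:**
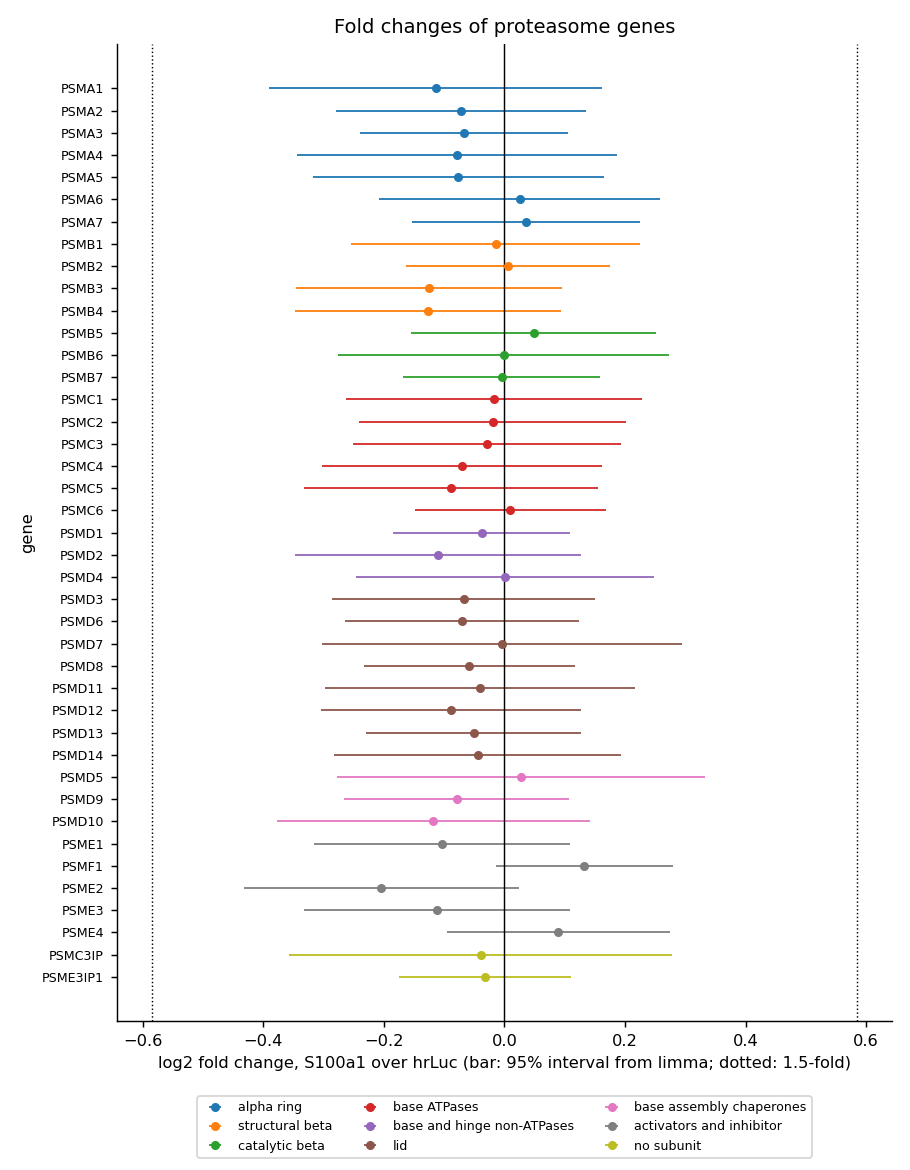
Log2 fold change of S100a1 over hrLuc (x axis) of the 41 measured proteasome genes (y axis), coloured by the part of the complex, with the 95% interval from limma as a bar and 1.5-fold as dotted lines. All 41 intervals lie between the dotted lines and all include 0.

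The alpha rings, which gate the entry to the core, showed 5 of 7 genes with a negative fold change and a median of -0.07. PSMA1 had the smallest p of the ring. It stood at 1316, 971 and 1283 normalized counts in hrLuc replicates 1 to 3 and at 1001.3, 1137, 1216 and 1017 in S100a1 replicates 1 to 4. The S100a1 values all lay between the lowest and the highest hrLuc value (log2 fold change -0.11 ± 0.12, SE, adjusted p = 0.805, limma). PSMA3, the next, had 2121, 1888 and 2022 in hrLuc and 1795, 2009.8, 2049 and 1825 in S100a1, with 2 of the S100a1 hearts below every hrLuc heart (-0.07 ± 0.08). PSMA2 gave 1594, 1307 and 1629 against 1390, 1462, 1520 and 1353, and here too hrLuc replicate 2 was the lowest of the 7 (-0.07 ± 0.09). On the positive side were PSMA7, at 0.03, and PSMA6, at 0.03. PSMA3 overlaps an unnamed locus and PSMA7 overlaps LSM14B on the genome, so their counts can hold reads of the neighbour.

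Among the beta subunits without an active site, PSMB4 and PSMB3 had the lowest fold changes of the core. PSMB4 counted 1657, 1289 and 1570 in hrLuc and 1315, 1448, 1434 and 1294 in S100a1, a log2 fold change of -0.13 ± 0.10 (SE, adjusted p = 0.729, limma). The 4 S100a1 hearts lay above hrLuc replicate 2 and below the other hrLuc hearts. PSMB3 repeated this order, with 603, 496 and 608 against 549, 526, 507 and 497 (-0.12 ± 0.10). PSMB1 was at -0.01 and PSMB2 at 0.0058, and the sign of PSMB1 changed under several settings, median centring among them.

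The 3 genes of the active sites had a median of -0.0011 with the deposited scaling, 0.046 with median centring and 0.060 with the trend in gene span removed. PSMB5, the chymotrypsin-like subunit (Sscrofa11.1, chromosome 7, 76014576 to 76021922), counted 1428, 1341 and 1697 in hrLuc and 1503, 1603, 1567 and 1458 in S100a1. All 4 S100a1 hearts fell inside the hrLuc range (log2 fold change 0.05, 95% interval -0.16 to 0.25, adjusted p = 0.894, limma). PSMB6, the caspase-like subunit (chromosome 12, 52096009 to 52098164), had 1253, 1076 and 1427 against 1082, 1444, 1236 and 1234 (-0.0011, interval -0.28 to 0.27). PSMB7, the trypsin-like subunit (chromosome 1, 265172257 to 265235389), had 1677, 1577 and 1735 against 1625, 1791, 1658 and 1559 (-0.0049, interval -0.17 to 0.16). For these genes the group means differed by less than the SD within either group, and their direction was not stable (PSMB6 and PSMB7 turned positive with median centring, and PSMB5 negative without hrLuc replicate 2).

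In interferon-exposed cells PSMB8, PSMB9 and PSMB10 take the places of PSMB5, PSMB6 and PSMB7, and these 3 genes, outside the set described here, varied far more between hearts. PSMB8 counted 352, 179 and 239.7 in hrLuc and 206, 195, 210.04 and 212 in S100a1. For every 100 reads of PSMB5 there were 24.7, 13.3 and 14.1 of PSMB8 in hrLuc and 13.7, 12.1, 13.4 and 14.6 in S100a1, with no correction for transcript length. PSMB10 per 100 reads of PSMB7 stood at 19.5, 12.4 and 14.9 in hrLuc and 9.95, 8.38, 12.8 and 14.7 in S100a1. hrLuc replicate 1 was the highest heart in each of these ratios, and in that of PSMB9 to PSMB6 (14.0, 9.34 and 8.52 against 7.67, 6.93, 9.27 and 9.90). The log2 fold changes were -0.26 for PSMB8, -0.31 for PSMB9 and -0.46 for PSMB10, with adjusted p from 0.609 to 0.731 in limma, and none passed. Without hrLuc replicate 1 they were -0.0087, -0.09 and -0.28, and without hrLuc replicate 2 they were -0.50, -0.49 and -0.64.

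**Figure D2:**
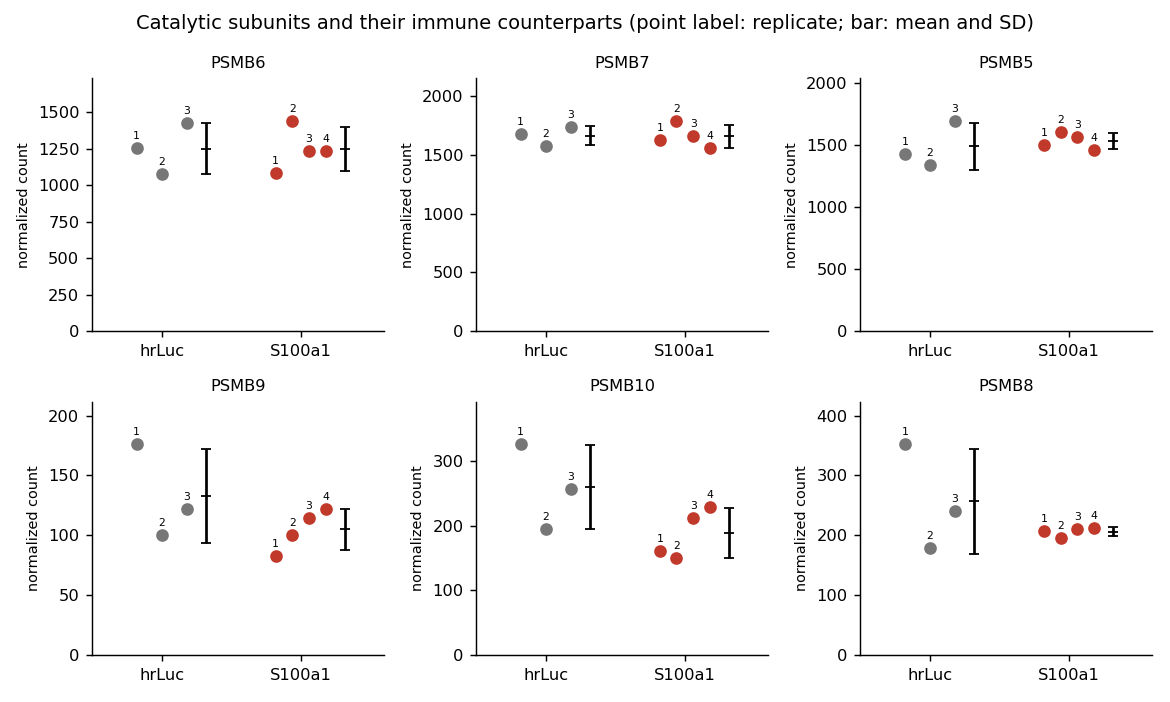
Normalized counts (y axis, from 0) of the constitutive catalytic genes PSMB6, PSMB7 and PSMB5 (top) and of PSMB9, PSMB10 and PSMB8, which can replace them (bottom), by vector (x axis), 1 point per heart labelled with its replicate number, with the mean and SD as a bar. The constitutive genes overlap between the vectors, with every S100a1 heart inside the hrLuc range for PSMB5 only. In the bottom row hrLuc replicate 1 is the highest heart for all 3 genes.

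The base of the regulatory particle carries the ATPase ring, which unfolds the substrate. Of its 6 ATPase genes 5 were negative, with a median of -0.02, and 2 were negative with median centring (median 0.023). PSMC5 had the smallest p, with 2614, 2118 and 2783 in hrLuc and 2116, 2519, 2511 and 2244 in S100a1 (log2 fold change -0.09 ± 0.11, SE, adjusted p = 0.828, limma). Its lowest values were in hrLuc replicate 2 and S100a1 replicate 1, a pair of hearts that was also low for PSMC2 and PSMC3. PSMC1 broke this order, since it counted 1422, 1394 and 1480.3 in hrLuc and 1224, 1711, 1419 and 1348 in S100a1, where replicate 2 was far above the rest. PSMC4 gave 907, 794 and 983 against 839, 906, 910.2 and 749.7 (-0.07). PSMC3 was at -0.03 and PSMC6 at 0.0098. PSMC5 overlaps FTSJ3 and PSMC1 overlaps NRDE2.

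The other genes of the base hold its scaffold and a ubiquitin receptor. PSMD2, a scaffold subunit that docks shuttle proteins, had 3560, 2835 and 3408 in hrLuc and 2614, 3161, 3286 and 3032 in S100a1 (log2 fold change -0.11 ± 0.10, SE, adjusted p = 0.780, limma). PSMD1, the second scaffold, was the steadiest subunit of the regulatory particle, with 3663, 3245 and 3253 against 3339, 3294, 3298 and 3249, a 1.13-fold span over the 7 hearts (-0.04 ± 0.065). hrLuc replicate 1 alone stood above the other 6 for PSMD1, which overlaps HTR2B. PSMD4, the ubiquitin receptor, counted 969, 758 and 991 against 945, 888, 952 and 822, with a log2 fold change of 0.0011 and an interval of -0.25 to 0.25.

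In the lid the 8 genes that the symbol rule catches had negative fold changes with the deposited scaling, with a median of -0.05 and a range of -0.09 to -0.0041, and 5 of 8 were negative with median centring (median -0.0076). PSMD7 is on the positive side in the authors' deposited table, at 0.0018, and SEM1, a lid subunit outside the rule that is given with the related genes, was at 0.42. PSMD12 had the smallest p of the lid, with 1836, 1521 and 1825 in hrLuc and 1555, 1776, 1684 and 1477 in S100a1 (-0.09 ± 0.095, SE, adjusted p = 0.806, limma). PSMD14, the deubiquitinase that removes the chain, counted 1869, 1583 and 1662 against 1725, 1884, 1598 and 1423. Its partner PSMD7 spanned the widest range of all members, 1.43-fold, from 939 in S100a1 replicate 1 to 1341 in S100a1 replicate 2, while hrLuc gave 1239, 1025 and 1280.3. Both extremes of PSMD7 thus came from the same group, and its fold change was -0.0041. PSMD6 stood at -0.07 and PSMD8 at -0.06, and PSMD8 was at 0.0012 with the trend in gene span removed.

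Chaperones that help build the base are PSMD5, PSMD9 and PSMD10. PSMD10, the oncoprotein gankyrin, had 218, 190.3 and 212 in hrLuc and 183, 188, 182 and 209 in S100a1, so that 3 of the S100a1 hearts lay below every hrLuc heart (log2 fold change -0.12 ± 0.11, SE, adjusted p = 0.785, limma, and exact two-sided permutation p = 0.171). PSMD9 gave 552, 587 and 608 against 525, 527, 578 and 575 (-0.08). PSMD5 gave 526, 421 and 532 against 412, 541, 497 and 563 (0.03), with hrLuc replicate 2 and S100a1 replicate 1 the lowest of their groups. PSMD10 lies on chromosome X and overlaps ATG4A.

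The largest fold changes in either direction were in the group of the alternative caps, which bind the ends of the core in place of the regulatory particle, and of the inhibitor, and none passed. PSMF1, which encodes the inhibitor PI31 (chromosome 17, 34118324 to 34164723), counted 1668, 1679.7 and 1845 in hrLuc and 1841, 1874, 1961 and 1906 in S100a1. The groups touched through hrLuc replicate 3 and S100a1 replicate 1 only. Its log2 fold change was 0.13 ± 0.065 (SE), or 1.10-fold with a 95% interval of 0.990 to 1.21. Its adjusted p was 0.618 in limma, and an exact permutation test, two-sided, gave 0.0571. Over 19 alternative settings it ran from 0.11 to 0.18. Some of these, such as other filters, the robust prior and the lowest transcript row, could not change this value. In limma the unadjusted p of PSMF1 was 0.072 in the main fit, 0.018 with median centring and 0.045 with quantile normalization. It was 0.038 with the gene span trend removed and 0.030 without hrLuc replicate 3, and under no setting did PSMF1 pass adjustment. In the authors' deposited table PSMF1 is at 0.13 with an adjusted p of 0.613.

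PSME1 and PSME2 encode the interferon-inducible cap PA28, whose subunits form a mixed ring, and they lie next to each other on chromosome 7 (75161830 to 75164531 for PSME1 and 75154570 to 75157871 for PSME2). PSME2 had 485, 431 and 494 in hrLuc and 399, 418, 368 and 448 in S100a1, where only S100a1 replicate 4 reached into the hrLuc range. Its log2 fold change was -0.20 ± 0.10 (SE), or 0.868-fold with an interval of 0.741 to 1.02. Its adjusted p was also 0.618 in limma, and the exact permutation test gave 0.114. PSME1 counted 1209, 977 and 1233 against 1022, 1117, 1044 and 1039, and hrLuc replicate 2 was its lowest heart (-0.10 ± 0.09, adjusted p = 0.765, limma). PSME1 overlaps EMC9.

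The same hearts differed in markers of the interferon response and of T and natural killer cells. Of 13 interferon genes measured, 13 were negative, 0 passed in limma and 0 were at a count of 0, and their summed level was 17689, 9340.3 and 11847 in hrLuc and 8553 to 11799 in S100a1. The summed level of 7 T and natural killer cell markers, of which 6 were negative, 0 passed in limma and 0 were at a count of 0, was 709, 339 and 552 in hrLuc and 319 to 404 in S100a1. The authors' deposited table calls 1 of these 7, CD5, a surface protein of T cells, with a log2 fold change of -1.15 and an adjusted p of 0.0170. For PSME1, PSME2 and the immunoproteasome genes the part of these cells and this response in the values was not tested.

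PSME3 and PSME4 encode caps found mainly in the nucleus. PSME3 had 1020.1, 907 and 952 in hrLuc and 794, 1005, 929.9 and 834 in S100a1 (log2 fold change -0.11 ± 0.10, SE, adjusted p = 0.756, limma). It has 3 transcript rows, and the lowest of them gave -0.19. PSME4, which encodes PA200, counted 7013, 8320.3 and 7257 in hrLuc and 7343, 8064, 8285 and 8298 in S100a1 (0.09 ± 0.08, adjusted p = 0.770, limma). In PSME4 hrLuc replicate 2 was the highest heart of all, whereas it was the lowest for 16 of the 31 core and regulatory particle genes. Without hrLuc replicate 2 PSME4 was at 0.16.

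**Figure D3:**
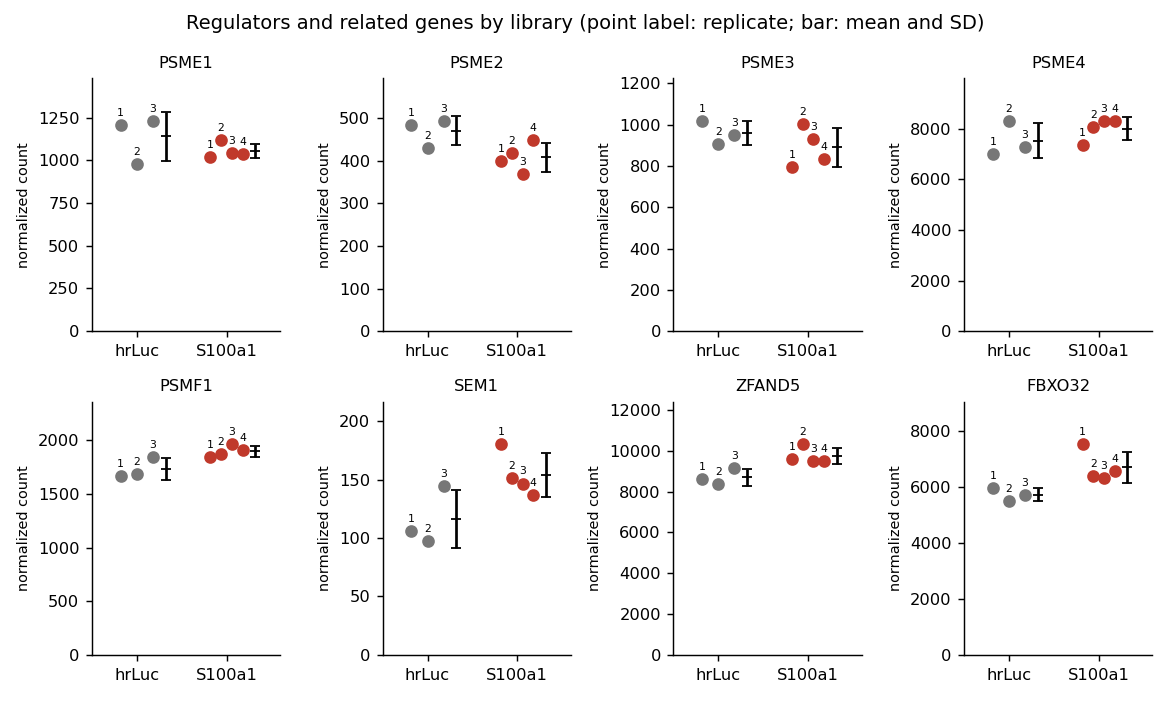
Normalized counts (y axis, from 0) by vector (x axis) of PSME1 to PSME4 and PSMF1 and of the related genes SEM1, ZFAND5 and FBXO32, 1 point per heart labelled with its replicate number, with the mean and SD as a bar. PSME2 and PSMF1 each overlap through single hearts, whereas ZFAND5 and FBXO32 were higher in all 4 S100a1 hearts than in all 3 hrLuc hearts.

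What the core and the regulatory particle shared was a pattern over single hearts that did not follow the vector, described here after the values were seen. In hrLuc replicate 2 all 31 genes stood below their own mean over the 7 hearts, where 52.1% of all genes tested did. In hrLuc replicate 3 29 of the 31 stood above it and in hrLuc replicate 1 28 did, against 56.4% and 54.4% of all genes. Within S100a1 27 of 31 were below their mean in replicate 1 and 26 in replicate 4, against 55.7% and 54.0% of all genes. In S100a1 replicate 2 26 were above it and in replicate 3 23 were, against 52.8% and 50.5%. The lowest value lay in hrLuc replicate 2 for 51.6% of the 31 genes and in S100a1 replicate 1 for 32.3%. Of all genes tested 14.0% and 24.1% were lowest in these hearts. No core or regulatory particle gene had its highest value in hrLuc replicate 2, S100a1 replicate 1 or S100a1 replicate 4, and none its lowest in the other 4 hearts.

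As a median over the 31 genes, the log2 deviation from each gene's mean was 0.09, -0.14 and 0.14 in hrLuc replicates 1 to 3 and -0.11, 0.06, 0.05 and -0.08 in S100a1 replicates 1 to 4. For hrLuc the mean of these medians was 0.03 ± 0.15 (SD, n = 3), while for S100a1 it came to -0.02 ± 0.09 (SD, n = 4), so that the groups differed by less than the spread within either. The core and the regulatory particle followed the same order of high and low hearts, with the core at 0.12, -0.14 and 0.15 in hrLuc and the regulatory particle at 0.08, -0.13 and 0.13. With the trend in gene span removed the medians were 0.05, -0.11 and 0.06 in hrLuc and -0.04, 0.03, 0.05 and -0.05 in S100a1, so that hrLuc replicate 2 stayed low while most other hearts moved closer to 0. In hrLuc replicate 2 31 of 31 genes were below their mean with this trend removed and also with median centring, and in S100a1 replicate 1 24 and 25 were. The part of sequencing depth in the pattern was not tested. Cardiomyocyte markers had a median deviation of -0.10, -0.10 and 0.12 in hrLuc and 0.13, 0.13, 0.04 and -0.07 in S100a1. By this median S100a1 replicate 1 was high, where the proteasome genes were low, but the single markers differed there. MYH7, RYR2 and PLN had their highest value in S100a1 replicate 1, and ACTC1 and MYBPC3 had their lowest. The part of cell composition in the pattern was not tested beyond these values.

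**Figure D4:**
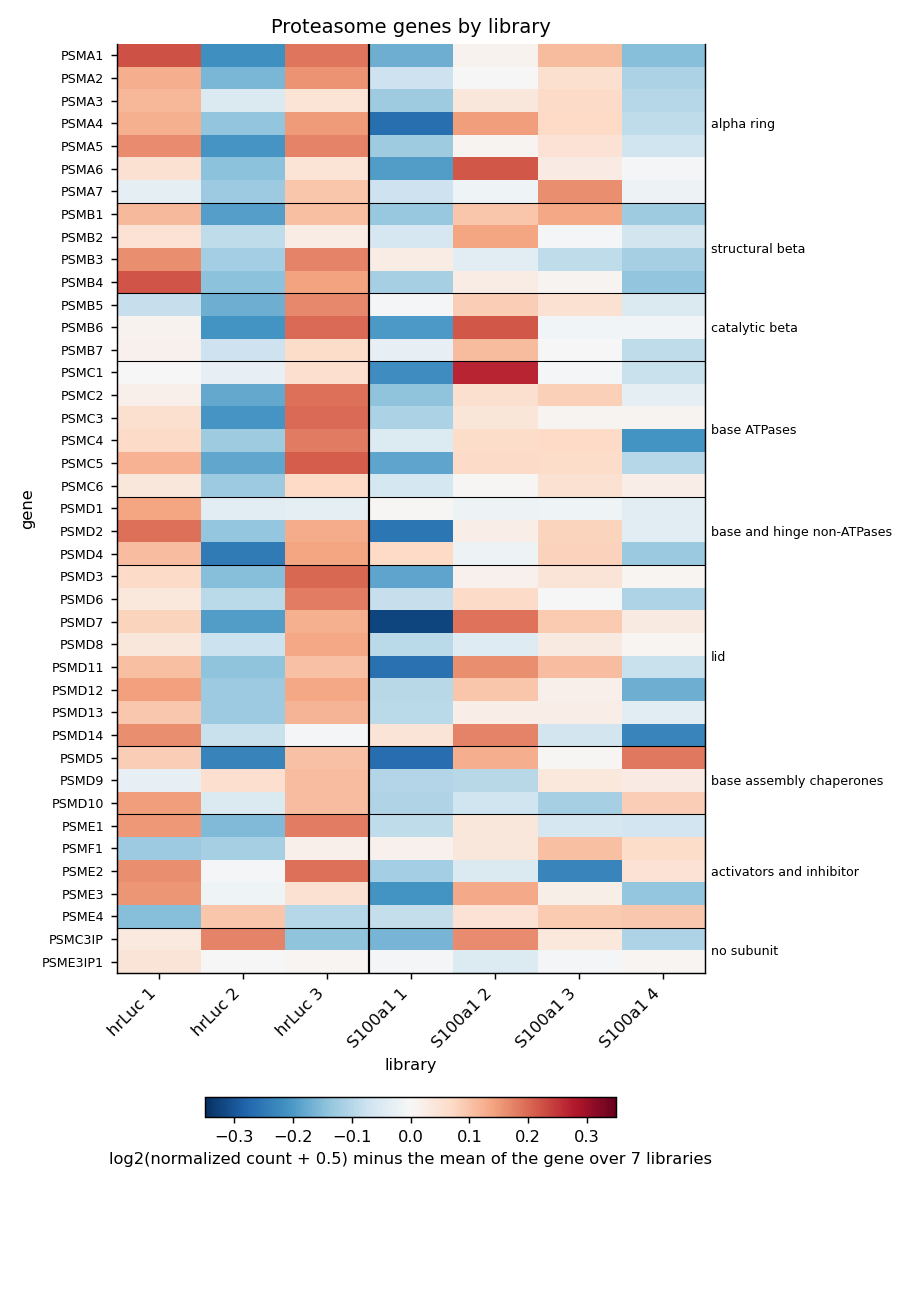
Log2(normalized count + 0.5) minus the mean of the gene over the 7 libraries (colour) for the 41 measured proteasome genes (rows, grouped by part of the complex) in each library (columns, vectors divided by a line). All 31 core, base and lid genes are below their mean in hrLuc replicate 2, and most are above it in hrLuc replicates 1 and 3.

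The pattern was not that of all members. The 4 caps and the inhibitor had median deviations of 0.15, -0.02 and 0.05 in hrLuc and -0.09, 0.04, 0.02 and 0.05 in S100a1, with PSME4 and PSMF1 lowest in hrLuc replicate 1, where core genes were mostly high. PSME3IP1, which is no subunit, spanned 1.07-fold over the 7 hearts, the narrowest of the members. The members as a whole had a median SD within groups of 0.13 on the log2 scale, close to the 0.12 of 6810 genes whose mean level lay between the 5th and 95th percentile of the members' means.

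**Figure D5:**
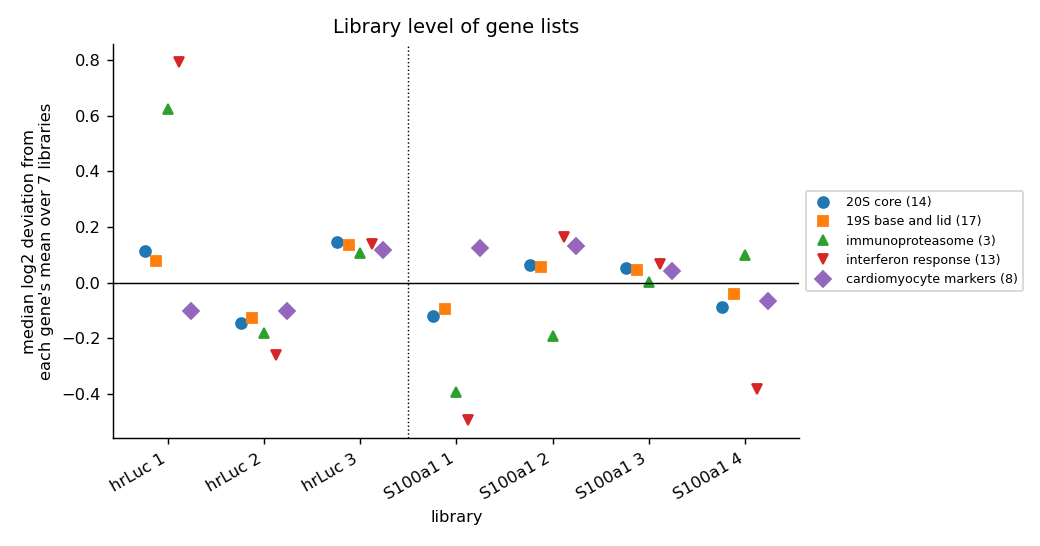
Median log2 deviation from each gene's mean over the 7 libraries (y axis) in each library (x axis, vectors divided by a dotted line) for the 20S core, the 19S base and lid, the immunoproteasome genes, 13 interferon response genes and 8 cardiomyocyte markers. Core and regulatory particle lie together in every heart within 0.15 of 0, while the immunoproteasome genes reach 0.62 in hrLuc replicate 1.

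Of 38 related genes listed outside the set, 36 were measured and 0 passed an adjusted p of 0.05 in limma, while 3, or 8.33%, were at an unadjusted p under 0.05, close to the 8.26% of all genes. The groups were apart in 2, or 5.56%, below the 9.27% of all genes, so neither share set the related genes apart. FBXO32, the muscle ubiquitin ligase atrogin-1, had 5974, 5494 and 5695 in hrLuc and 7524, 6402, 6324 and 6583 in S100a1, without overlap (log2 fold change 0.23 ± 0.08, SE, adjusted p = 0.541, limma, and exact two-sided permutation p = 0.0286, the smallest that 7 libraries allow). The ligase TRIM63 was at -0.02. ZFAND5, which activates the proteasome in wasting muscle of mice, counted 8607, 8350.2 and 9141 against 9593, 10320.1, 9511 and 9515, again without overlap (0.16 ± 0.07, adjusted p = 0.574, limma, exact two-sided permutation p = 0.0286). SEM1, the small lid subunit that the symbol rule does not catch, had 106, 97.3 and 144 against 180.2, 151, 147 and 137 (0.42 ± 0.17, adjusted p = 0.575, limma). SEM1 had the highest fold change of the related genes and overlapped through hrLuc replicate 3. Its unadjusted p was 0.040 in limma, and its 95% interval of 1.02 to 1.76-fold reached past 1.5-fold. ADRM1, a ubiquitin receptor of the base, was at -0.03.

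The factors that build and control the complex showed no call either. NFE2L1, the transcription factor that restores proteasome genes when proteolysis is impaired, counted 14059, 12407 and 14892 in hrLuc and 10962, 13772, 14960.4 and 15508 in S100a1. It was lowest in S100a1 replicate 1 and next in hrLuc replicate 2, both low hearts for the subunits, but highest in S100a1 replicate 4, where 26 of the 31 subunit genes were below their mean (log2 fold change -0.0069, adjusted p = 0.990, limma). NFE2L2 was at 0.07 and AKIRIN2, an import factor for proteasomes, at -0.12. Of the core assembly chaperones 4 of 5 were measured, with PSMG3 at 0.21 ± 0.14 (SE, adjusted p = 0.670, limma) and PSMG1 at 0.08. POMP and DDI2 were not analysed here.

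Genes that deliver substrates showed no call. With the deposited scaling 6 of 8 shuttle and segregase genes were negative, with a median of -0.07 and 0 calls. VCP, the ATPase that pulls ubiquitinated proteins out of complexes, had 7856, 6728 and 8326 in hrLuc and 6469.9, 7301, 7422 and 6727 in S100a1, so that the low hearts were again S100a1 replicates 1 and 4 and hrLuc replicate 2 (-0.13 ± 0.09, SE, adjusted p = 0.710, limma). RAD23B, a shuttle for ubiquitinated proteins, was at -0.12. Of the 6 ubiquitin and activating enzyme genes 4 were positive, with UBA6 at 0.11 and UBB at -0.13, and of 7 proteasome-associated genes 6 were positive, with PAAF1 at 0.12.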

How the data were processed

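The deposited table holds 63562 transcript rows of 7 libraries. Its per-library values are a signal, namely counts divided by 1 size factor per library, as the deposited values show (100% were whole multiples of 1 read within 0.01 read). The authors' comparison is deposited as a log2 fold change, a ratio and an adjusted p-value. Per the submitters' processing notes the build was Sscrofa11.1 and R 4.1.2, FastQC 0.11.8 and DESeq2 1.33.1 were used, with no role stated. Per the labels' protocols, ribosomal RNA was depleted from total RNA. The sources used here do not name the aligner, the counting program or its use of strand. Reads of overlapping genes (10 of the 41 members) therefore cannot be told apart.

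For each RefSeq gene the row with the highest mean was kept. Genes that reached 10 normalized counts in 3 or more libraries (15661) were fitted with limma 3.58.1 (R 4.3.3, mean-variance trend, 5 residual and 3.84 prior degrees of freedom) on log2(value + 0.5), two-sided, with Benjamini-Hochberg adjustment over all of them and a threshold of 0.05. edgeR 4.0.16 and DESeq2 1.42.0 were run on whole reads recovered from the signal. Single genes were also compared by exact permutation of the libraries. All fits were tested on simulated counts. The design had been written for whole counts or normalized values, and the branch for normalized values was used.

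Members and gene lists were chosen with earlier results of these data known. Named genes were S100A1, the 3 members of smallest p in each part of the complex, the catalytic genes, caps and inhibitor, members nearest to the minimum, the 2 related genes of smallest p in each list and the immunoproteasome genes, with NFE2L1. Other genes named were chosen after their values were seen. Protein and promoter sequences were not used here. The p-values set the difference between the vectors against the spread between these hearts. Alternatives were other scalings, filters, pseudocounts and transcript rows, a replicate block, a robust prior, removal of the trend with gene span, other tests, a threshold of 0.10 and each library left out. 0 columns of values were left unassigned.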

Additional observations from a re-analysis of the deposited data

Results flagged for a closer look

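ZFAND5 in S100a1 replicate 2 counted 10320.1 normalized counts, far from the other 3 S100a1 hearts, whose values lay between 9511 and 9593. The gap to the nearest heart was 0.899 of the range of the group, above the critical value of Dixon for 4 samples. It was the 1 such value among 47 named genes, and chance gives such a gap in about 1 of 20 groups. The critical value is for 4 samples, so this count speaks for the S100a1 groups only. Without that library the log2 fold change of ZFAND5 was 0.13, against 0.16 with it.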

How the results depend on the processing

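Calls among the members and the related genes were 0 under every alternative run, including a threshold of 0.10, DESeq2 and each library left out. The median of the members was -0.045 in the main fit. It ran from -0.12 without hrLuc replicate 2 to 0.0023 with median centring, so its sign was not stable. Median centring moved the median of all genes tested as well, from -0.024 to 0.023, and the member median stayed below it. Among the named genes, reversed signs were those of genes with small log2 fold changes, the largest in size being 0.085 for PSMG1 and -0.058 for PSMD8. The cause of the reversals was not tested. With quantile normalization PSMB1 was at 0.0033, PSMB7 at 0.015, PSMB6 at 0.021 and PSMC3IP at 0.014. With median centring PSMB1 was at 0.032, PSMB7 at 0.042, PSMB6 at 0.046, PSMC3 at 0.018, PSMD1 at 0.0095, PSME3IP1 at 0.015, PSMC3IP at 0.0075, ADRM1 at 0.017, TRIM63 at 0.028 and NFE2L1 at 0.040. With the gene span trend removed PSMB1 was at 0.033, PSMB6 at 0.060, PSMC3 at 0.032, PSMD8 at 0.0012, PSMC3IP at 0.021, ADRM1 at 0.031, TRIM63 at 0.032 and NFE2L1 at 0.047. With edgeR and DESeq2 PSMB1 was at 0.0061 and 0.0044, PSMB7 at 0.018 and 0.016, PSMB6 at 0.019 and 0.018, TRIM63 at 0.0028 and 0.0010, and NFE2L1 at 0.024 and 0.022. PSMD4 was at -0.00032 in its lowest transcript row.

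With 1 library left out PSMB1 ran from -0.12 to 0.038, PSMB5 from -0.024 to 0.15, PSMB7 from -0.043 to 0.026, PSMB6 from -0.11 to 0.098, PSMC3 from -0.14 to 0.063, PSMD1 from -0.067 to 0.020, PSMD4 from -0.12 to 0.071, PSMD5 from -0.082 to 0.12, PSMC3IP from -0.12 to 0.036, PSMG1 from -0.047 to 0.18, ADRM1 from -0.098 to 0.031, TRIM63 from -0.050 to 0.0055 and NFE2L1 from -0.081 to 0.10.

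Whether replicate numbers pair the hearts is not given. The deviations of same-numbered libraries correlated at -0.022, -0.075 and 0.082 across genes, which cannot settle it. With the replicate block 0 members were called, and PSMB1 was at 0.025, PSMB7 at 0.024, PSMB6 at 0.0021, PSMD5 at -0.030 and ADRM1 at 0.014. S100a1 replicate 4 has no hrLuc library of its number. The block fit therefore gave the same fold changes as the fit without that library and is no separate check. With 3 and 4 hearts per vector, differences smaller than the intervals given could not be detected.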
